A study of Homo sapiens with 2 samples.

Results

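The 10 genes described here are widely used as markers of mesenchymal and fibroblast-like cells: VIM, CDH2, FN1, SPARC, POSTN, TNC, S100A4, THY1, TAGLN and CDH11. They were taken by name, and all 10 were matched to a gene identifier among the 28303 genes listed in both libraries. The libraries come from HGC27 at passage 4-6, a line long established from a human gastric cancer. One library is from cells transfected with the empty plasmid pcDNA3.1-control and the other from cells transfected with pcDNA3.1-linc01133, which carries the long non-coding RNA LINC01133, both with the reagent Turbofect and harvested 48 h later. Both cultures were thus transfected, an untransfected group is not among these 2 libraries, and transfected cells were not separated from untransfected ones as far as the labels say. The design addresses which transcripts differ when LINC01133 is overexpressed.

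Epithelial cells that lose E-cadherin and keratins can take up a mesenchymal programme, with a vimentin cytoskeleton, N-cadherin or cadherin-11 at cell contacts and a secreted matrix of fibronectin and collagens. Matricellular proteins such as SPARC, periostin and tenascin-C are secreted into that matrix and modify how cells attach to it. In gastric tumours these genes are read both in cancer cells that have undergone such a transition and in the surrounding fibroblasts. A cell line culture holds no stromal cells of its own.

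Each group held 1 library, with a depth of 15666628 counted fragments (control) and 16302584 (overexpression). No difference below has a replicate check and no p-value was computed. Levels are FPKM, fragments relative to the merged exon length of the gene and to the depth of the library, and each interval is an exact 95% interval for counting error only. LINC01133 itself rested on 4 fragments in the control and 74 in the library labelled as overexpressing it, an FPKM of 0.0809 and 1.44. Across all genes, transcripts poor in G and C were higher in the LINC01133 library: the Spearman correlation between transcript GC content and log2 ratio was -0.801 across 11913 genes, which do not count as replicates. The GC content is therefore given for each marker and for some of the other genes. Its part in a single gene's difference was not tested.

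Stretches of coding sequence show how far the markers differ in composition. Each is 120 bases from the centre of the longest coding exon of the gene's representative transcript, on GRCh38, from the GENCODE 29 transcript sequences, with G and C in capitals. POSTN, the marker that differed most, is shown beside S100A4 and THY1, which were lower.
POSTN: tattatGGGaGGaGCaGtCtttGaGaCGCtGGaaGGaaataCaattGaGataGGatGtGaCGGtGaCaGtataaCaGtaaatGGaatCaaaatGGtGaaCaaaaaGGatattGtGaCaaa
S100A4: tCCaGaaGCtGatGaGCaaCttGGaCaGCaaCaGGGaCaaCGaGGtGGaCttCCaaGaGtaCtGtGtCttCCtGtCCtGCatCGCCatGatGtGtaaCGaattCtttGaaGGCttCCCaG
THY1: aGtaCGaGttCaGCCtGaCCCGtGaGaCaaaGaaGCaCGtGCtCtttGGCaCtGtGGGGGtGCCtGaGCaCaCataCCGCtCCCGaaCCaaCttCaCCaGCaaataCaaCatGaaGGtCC
The POSTN stretch (chr13:37584763-37584882, minus strand, exon 8 of 23) holds 45 G or C bases. The S100A4 stretch (chr1:153543782-153543901, minus strand, exon 3 of 3) holds 60, and the THY1 stretch (chr11:119420159-119420278, minus strand, exon 3 of 4) holds 65. Over the whole representative transcript the GC content was 39.0% for POSTN, 54.1% for VIM, 53.2% for S100A4 and 57.4% for THY1. The other markers lay between the extremes of POSTN and THY1, with CDH11 at 42.9%, CDH2 at 45.0%, SPARC at 47.3%, FN1 at 50.2%, TNC at 54.0% and TAGLN at 56.3%.

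The markers spanned a very wide range of levels. In the control, S100A4 (FPKM 230) and VIM (198) stood highest, followed by POSTN (33.7), SPARC (32.6), THY1 (15.8) and FN1 (3.50). TAGLN (0.619), TNC (0.219), CDH2 (0.0516) and CDH11 (0.00477) were under 1. A mean FPKM of 1 or more, the limit set here for counting a gene as measured, was reached by 6 of the 10 markers, and the same 6 had at least 1 in each library. Neighbours in this order did not overlap in their counting intervals, except POSTN with SPARC and CDH2 with CDH11. In the LINC01133 library the order was VIM, S100A4, POSTN, SPARC, THY1, FN1, TAGLN, TNC, CDH2 and CDH11, with no overlap between neighbours. VIM and S100A4 had exchanged places. The merged exon length used for FPKM is longer than a single transcript, 5158 against 2135 bases for VIM and 1025 against 600 for S100A4. Scaled to the length of the representative transcript, the control levels were 479 for VIM and 393 for S100A4, so the order of these markers in the control depends on the length used.

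**Figure D1:**
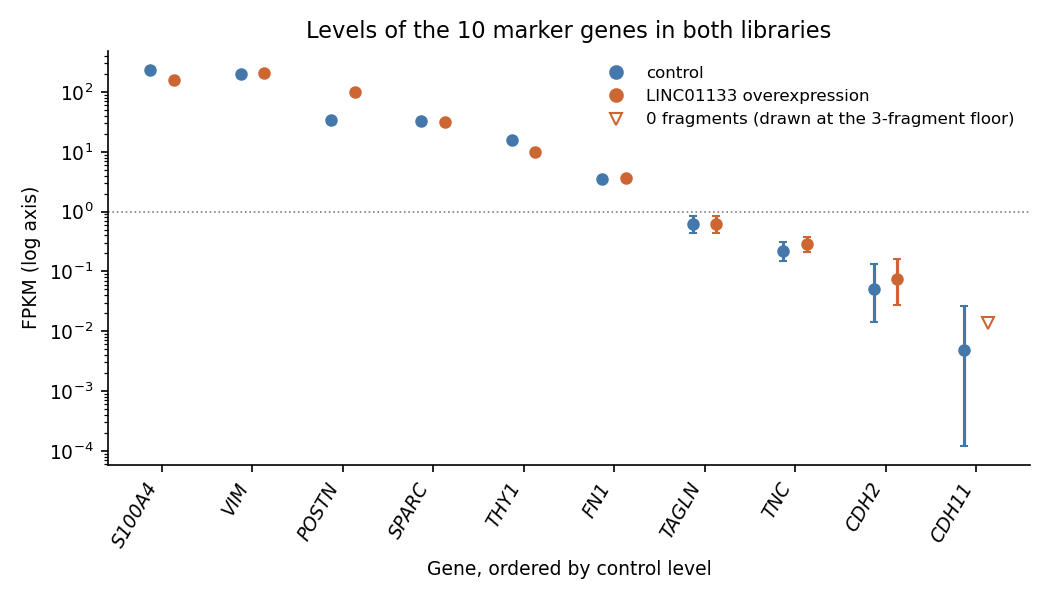
FPKM of the 10 marker genes (log axis) in the control (blue) and the LINC01133 overexpression library (orange), 1 library each, with exact 95% counting intervals and a dotted line at an FPKM of 1. Of the markers, 6 lie above 3 in both libraries and 4 lie under 1, and POSTN shows the widest gap, from 33.7 to 98.8.

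POSTN was the single marker at least 2-fold apart between the libraries. Of the 6 measured markers 1 was higher by 2-fold or more in FPKM + 1 and 0 were lower, and the same held for 11.9% (higher) and 0.444% (lower) of all 11945 measured genes. A count of 1 in 6 is close to that background and is not read as a result about the markers as a group. At 1.5-fold, POSTN remained the only marker counted as higher and THY1 was counted as lower, beside 26.8% and 5.29% of all measured genes. The median log2 ratio of FPKM + 1 was 0.01 over the 6 markers, against 0.10 over all measured genes. Of the 6 ratios 3 were above 0 and 3 below.

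POSTN encodes periostin, a secreted matricellular protein that binds integrins and collagen. The FPKM was 33.7 in the control (interval 32.5 to 34.9) and 98.8 in the LINC01133 library (96.7 to 101), from 2883 and 8800 fragments. The LINC01133 library was the higher one and the intervals were far apart. In bulk RNA, more cells with POSTN transcripts and more transcripts per cell cannot be told apart. The ratio of FPKM was 2.93 (2.81 to 3.06), which is 1.52 as a log2 ratio of FPKM + 1. Its rank by level went from 1323 to 320 among all listed genes. The gene (ENSG00000133110) lies on the minus strand of chromosome 13, from 37562583 to 37598844, and shares no exon bases with another gene in GENCODE 29.

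The transcript composition of POSTN places it among genes that were mostly higher. Measured genes were divided into 10 classes of nearly equal size by GC content, and the class of POSTN spans 38.7% to 41.3%. It had a median log2 ratio of 0.85 and quartiles of 0.59 and 1.11, and 34.3% of its 1191 genes were higher by 2-fold or more. Of these 1191 genes, 59 had a larger log2 ratio than POSTN. With the trends on GC content and transcript length subtracted from all genes, the log2 ratio of POSTN was 0.68, under 2-fold. The subtraction kept the median over all measured genes at 0.10. By that setting 0 of the 6 markers were at least 2-fold apart, beside 1.7% (higher) and 0.764% (lower) of the 11913 measured genes that have a GC content. The genes nearest to POSTN in log2 ratio and level together, over the 2 libraries, were ACTR2 (FPKM 41.7 and 111), TOP2A (40.5 and 119) and ZHX1 (31.5 and 110). Their transcripts had GC contents of 38.1%, 39.1% and 39.3%, close to that of POSTN. Among the genes nearest to other markers the match was mixed. CTPS1 (47.1%) was close to SPARC (47.3%) and RAB6B (50.5%) to FN1 (50.2%). TXN (42.8%) was far from VIM (54.1%), and DAPK3 (65.9%) from THY1 (57.4%).

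**Figure D2:**
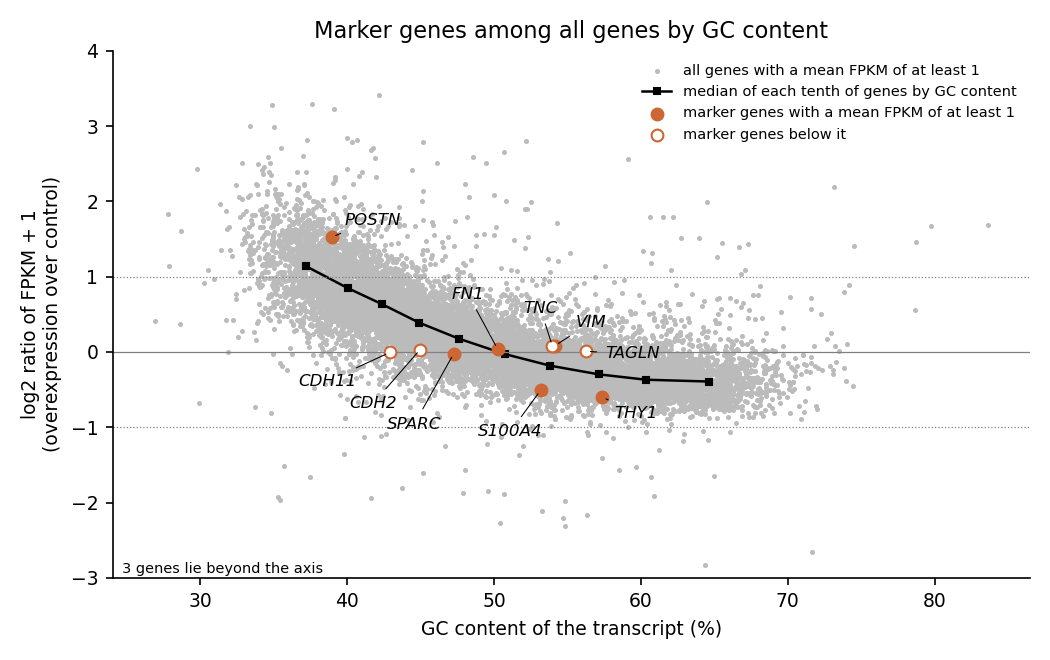
The log2 ratio of FPKM + 1, overexpression over control, against the GC content of the transcript for all measured genes (grey), with the median of each of the 10 GC classes (black) and the 10 markers (orange, open where the mean FPKM is under 1). POSTN at 39.0% GC lies above the median of 0.85 of its class, while S100A4 and THY1 lie below the medians of theirs.

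SPARC encodes another matricellular protein, which binds collagen and calcium, and its deposited levels were close in both libraries. The FPKM was 32.6 in the control (31.3 to 33.9) and 32.1 in the LINC01133 library (30.9 to 33.4). The intervals overlapped, and the ratio was 0.984 (0.931 to 1.04). SPARC and POSTN were thus close in the control, at 32.6 and 33.7, and far apart in the other library, at 32.1 and 98.8. The median log2 ratio in the GC class of SPARC was 0.18, and its own was -0.02. SPARC (ENSG00000113140) lies on chromosome 5, from 151661096 to 151687165, on the minus strand. Nearest to it in log2 ratio and level were ENSA, CTPS1 and EWSR1, within a distance of 0.0449 on these log2 scales. An antisense gene, CLMAT3, shares 7.89% of its exon bases, but was listed at FPKM values of 0 and 0.0280.

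FN1 encodes fibronectin, the adhesive glycoprotein onto which other matrix components assemble. The FPKM was 3.50 in the control (3.28 to 3.73) and 3.62 in the LINC01133 library (3.41 to 3.85), from 949 and 1023 fragments. The intervals overlapped and the ratio was 1.04 (0.947 to 1.13). FN1 (ENSG00000115414, minus strand of chromosome 2, 215360440 to 215436172) has 17315 bases of merged exons and a representative transcript of 8905 bases. SLC38A7, RAB6B and SEC61A2 were nearest to it in log2 ratio and level, within 0.02. By transcript length its levels were 6.80 and 7.05, still the lowest of the 6 measured markers. TNC encodes tenascin-C, a matricellular protein that modulates adhesion to fibronectin. It had an FPKM of 0.219 (0.150 to 0.307) and 0.286 (0.209 to 0.383), from 33 and 45 fragments, and a ratio of 1.31 (0.818 to 2.12). A difference in TNC was not detectable at this depth. In its exons TNC (ENSG00000041982, minus strand of chromosome 9, 115019578 to 115118257) shares 1.34% of the bases with DEC1 on the opposite strand.

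VIM encodes vimentin, the type III intermediate filament protein of mesenchymal cells. The FPKM was 198 in the control (195 to 201) and 210 in the LINC01133 library (207 to 213), from 16021 and 17660 fragments. The intervals did not overlap, but the ratio was only 1.06 (1.04 to 1.08). The median log2 ratio in its GC class, from 52.3% to 55.5%, was -0.18, and that of VIM was 0.08. With the trends subtracted it was 0.42. The nearest genes in log2 ratio and level were TXN, RPS25 and MIR621, within 0.151. VIM took 0.102% of all fragments in the control and 0.108% in the LINC01133 library. In VIM (ENSG00000026025, plus strand of chromosome 10, 17228259 to 17237593), 12.4% of the exon bases are shared with the antisense gene VIM-AS1, whose FPKM was 0.256 and 0.554. Whether counting used strand is not given in the sources used here, so reads of such partners may not have been told apart.

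S100A4 encodes a small calcium-binding protein, also known as fibroblast-specific protein, that interacts with non-muscle myosin. The FPKM was 230 in the control (223 to 237) and 161 in the LINC01133 library (155 to 167), from 3692 and 2691 fragments. The control was the higher library, and the ratio of overexpression to control was 0.700 (0.666 to 0.736). S100A4 and VIM fall in the same GC class, and their ratio intervals did not overlap. Within that class, 1085 of 1192 genes had a higher log2 ratio than S100A4 and 198 a higher one than VIM. With the trends subtracted the log2 ratio of S100A4 went from -0.51 to -0.21. RPS14, RPL13AP5 and NDUFB9 were nearest in log2 ratio and level, within 0.08. The gene (ENSG00000196154) lies on the minus strand of chromosome 1, from 153543613 to 153550136.

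THY1 encodes a GPI-anchored glycoprotein, CD90, on the surface of fibroblasts and other mesenchymal cells. The FPKM was 15.8 in the control (15.0 to 16.7) and 10.1 in the LINC01133 library (9.49 to 10.8), from 1470 and 977 fragments. The LINC01133 library was the lower one, at 0.639 (0.588 to 0.693) of the control, the lowest ratio of the 6 measured markers. The median log2 ratio in its GC class, from 55.5% to 58.7%, was -0.30, and that of THY1 was -0.60, or -0.21 with the trends subtracted. THY1 (ENSG00000154096) lies on the minus strand of chromosome 11, from 119417378 to 119424985, and shares 10.7% of its exon bases with AP003396.5 on the opposite strand. The genes nearest to it in log2 ratio and level were DAPK3 (FPKM 15.8 and 10.3), ERCC2 (15.5 and 9.94) and GRK2 (15.97 and 9.94).

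TAGLN encodes transgelin, an actin-binding protein of smooth muscle and activated fibroblasts. It had an FPKM of 0.619 (0.438 to 0.850) and 0.626 (0.448 to 0.853), from 38 and 40 fragments, with a ratio of 1.01 (0.632 to 1.62). PCSK7 on the opposite strand shares 11.4% of its exon bases, with FPKM values of 1.54 and 1.27, so the level of TAGLN is uncertain. The cadherins were close to absent. CDH2, which encodes N-cadherin, had 4 and 6 fragments (FPKM 0.0516 and 0.0744) and a ratio of 1.44 with an interval of 0.342 to 6.95. CDH11, which encodes the cadherin of mesenchymal and bone-forming cells, had 1 fragment in the control and 0 in the LINC01133 library. The counting interval at 0 fragments reaches an FPKM of 0.0169. TAGLN (ENSG00000149591, chromosome 11, 117199321 to 117204782) is a plus-strand gene. CDH2 (ENSG00000170558, chromosome 18, 27950966 to 28177446) and CDH11 (ENSG00000140937, chromosome 16, 64943753 to 65126112) lie on the minus strand. Differences in TAGLN, CDH2 and CDH11 were not detectable at this depth.

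Relatives of the markers were often far more abundant than the low markers themselves. TAGLN2, a transgelin found in many cell types, had an FPKM of 282 and 196 against about 0.62 for TAGLN. Among 13 listed other cadherins 4 were measured: CDH24 (18.1 and 13.7), CDH6 (9.97 and 15.8), CDH10 (2.44 and 5.51) and CDH15 (1.26 and 1.18). That these 4 were above CDH2 and CDH11 follows from the limit on the mean FPKM. The other listed cadherins were under it too, from CDH5 with 0 fragments in both libraries to CDH7 (0.633 and 1.19). CDH1, which encodes E-cadherin, had 2 and 1 fragments, so the classical E- and N-cadherin genes were both near 0 in both libraries. Transcripts of proteins that bind cadherins or link them to actin were present. CTNNA1 had 47.3 and 43.6, VCL 33.4 and 36.9, CTNND1 23.5 and 27.3 and CTNNB1 18.1 and 22.8. Of the 5 measured genes on that list 0 were at least 2-fold apart, beside 11.9% (higher) and 0.444% (lower) of all measured genes.

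In the matricellular families the contrast ran the other way for POSTN and SPARC, but not for TNC. TNC (0.219 and 0.286) was itself low, near its relative TNXB (0.151 and 0.145). TGFBI, the closest relative of POSTN, had 1 fragment in each library, and SPARCL1, a relative of SPARC, had 1 and 9. The tenascin gene TNR had 0 in both. SPOCK3 was the single measured gene of 12 such relatives, at 0.954 and 2.37. TGFBI, SPARCL1, TNR, TNXB, CDH7 and CDH1 were named after their values were seen. Of 11 listed other S100 genes 5 were measured, and all 5 had a log2 ratio below 0, as did S100A4 and 44.6% of all measured genes. Under the limit the directions were mixed. S100A5 had 5 and 19 fragments (ratio 3.65, interval 1.32 to 12.5), and S100A1 had 8 and 1 (0.120, interval 0.00271 to 0.896). S100A5 and S100A1 were named after their values were seen. S100A11 had 337 and 212, S100A10 155 and 120, and S100A16 20.4 and 13.6. S100A3 (2.14 and 2.12, ratio 0.991, interval 0.591 to 1.66) and S100A2 (1.38 and 0.979, ratio 0.707, interval 0.404 to 1.22) had ratio intervals that include 1, and S100A2 was named after its values were seen. With the trends subtracted the median log2 ratio over these 5 was 0.09 instead of -0.37, beside 0.10 over all measured genes.

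**Figure D3:**
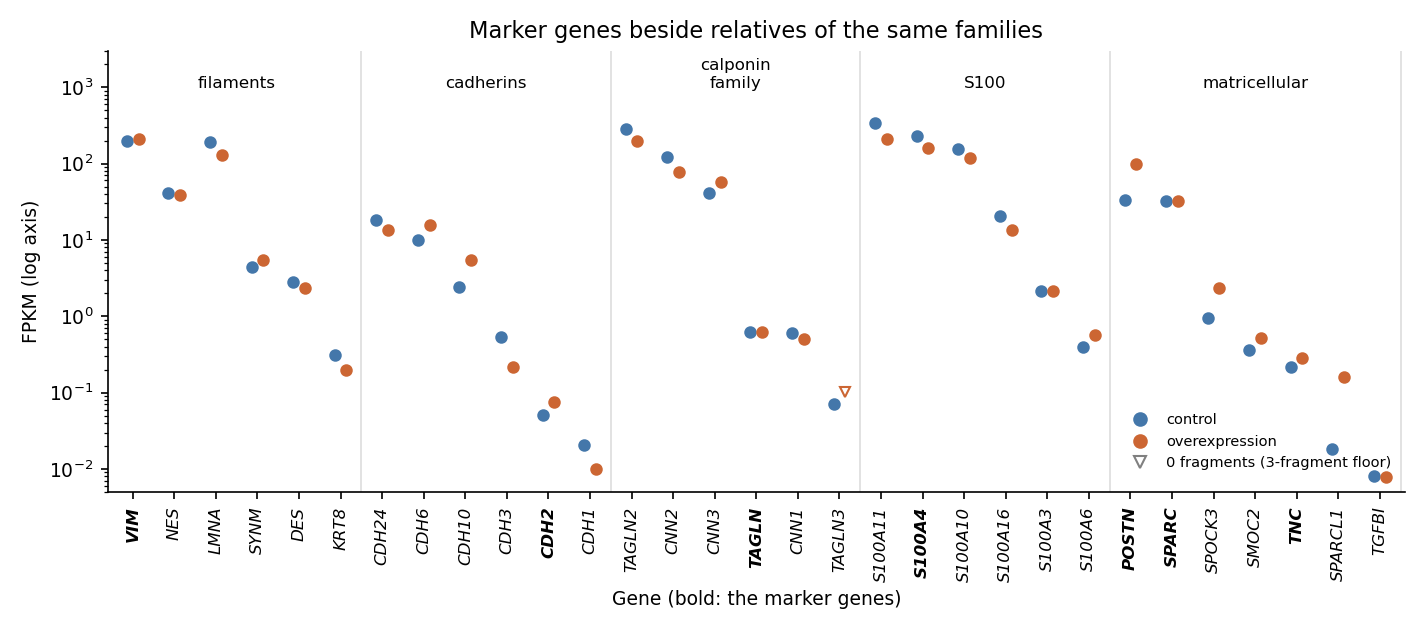
FPKM (log axis) of the markers (bold) beside relatives from 5 families in the control (blue) and the LINC01133 library (orange), without replicates, and open triangles at the 3-fragment floor where 0 fragments were counted. VIM, S100A4, POSTN and SPARC stand at or near the top of their families, while TAGLN and CDH2 lie far below TAGLN2, CDH24 and CDH6.

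Among intermediate filament genes VIM stood far above the keratins. LMNA, a nuclear lamin, had 193 and 131, near VIM in the control (198) and below it in the LINC01133 library (210). Among the others, LMNB2 had 171 and 138, LMNB1 52.3 and 73.5, and the stem and mesenchymal cell filament gene NES 40.6 and 38.8. Of the 7 measured filament genes 0 were at least 2-fold apart, beside 11.9% (higher) and 0.444% (lower) of all measured genes. KRT8 had 34 and 22 fragments, and KRT18 had 0 in both libraries, with counting intervals that reach an FPKM of 0.0732 and 0.0703. These keratins pair in simple epithelia such as the gastric lining, and were named after their values were seen.

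Most listed genes that define epithelial cells were under the limit on the mean FPKM. Of 20 listed epithelial genes 3 were measured: the desmosomal DSG2 (10.0 and 20.4) and DSP (4.34 and 6.33), and MUC1 (1.41 and 1.13). KRT19 and KRT20, also looked up, were not among the listed genes. EPCAM, a defining epithelial surface marker, had 1 and 12 fragments. CLDN7 (1.02 and 0.788), CLDN4 (0.638 and 0.496) and OCLN (0.302 and 0.590) had more, but were also under the limit. These 3 were named after their values were seen. The summed FPKM of the list was 19.2 in the control and 30.7 in the LINC01133 library. Both sums, and the difference between them, came mostly from DSG2 and DSP. Their GC contents were 42.0% and 47.9%. The log2 ratio went from 0.96 to 0.35 for DSG2 and from 0.46 to 0.33 for DSP with the trends subtracted. Of 8 listed gastric lineage genes only the transcription factors GATA4 (8.36 and 6.36) and GATA6 (3.71 and 3.48) were measured, and the mucin gene MUC5AC and TFF2 had 0 fragments in both. TFF1, GKN1, GKN2 and PGC, also looked up, were not among the listed genes, so their levels are not known. The other listed markers of gastric epithelium were thus absent or near 0, although the labels give a gastric cancer origin.

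Markers of other cell types were low as well, apart from a few single genes. The endothelial CDH5 and KDR had 0 fragments in both libraries, and the summed FPKM of 7 listed endothelial genes was 1.73 and 1.94. For 4 listed blood genes the sum was 4.43 and 3.12. For 6 listed muscle genes it was 53.6 and 38.3, of which the troponin gene TNNT1 gave 50.2 and 35.8, and the smooth muscle gene MYH11 had 0.151 and 0.107. EPCAM, MUC5AC, TFF2, CDH5, KDR and MYH11 were named after their values were seen. For 3 listed neural crest genes it was 15.0 and 11.2, mostly from NGFR (13.8 and 9.80). Whether these genes move with the markers for a shared reason was not tested.

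Fibroblast matrix genes had the largest summed FPKM of the 16 lists examined beside the markers, 1223 and 1052. Of 20 listed genes 13 were measured, 1 was at least 2-fold higher and 0 lower, beside 11.9% and 0.444% of all measured genes. Their median log2 ratio was -0.18, and -0.0039 with the trends subtracted, beside 0.10 over all measured genes in each case. BGN, a small proteoglycan, had 392 and 264, the fibrillar collagen genes COL3A1 325 and 322 and COL1A1 209 and 162, and the matrix glycoprotein gene FBLN1 57.1 and 39.5. LOX, the enzyme that crosslinks collagen, was the one past 2-fold, at 9.63 and 22.2, with a log2 ratio of 1.13 that went to 0.30, under 2-fold, with the trends subtracted. LUM, a collagen-binding proteoglycan, had 30.5 and 56.6. COL1A2, the partner chain of COL1A1, had only 3.53 and 2.99, and was named after its values were seen. Some matrix genes were near 0: VCAN (1 and 0 fragments), COL6A3 (2 and 3), MFAP2 (2 and 3) and MFAP5 (0 and 1). FBN1 (96 and 170) and THBS1 (67 and 146) had more, but were also under the limit. These genes too were named after their values were seen. On the surface list 0 of 10 measured genes were at least 2-fold apart in FPKM + 1, beside the same shares of all measured genes. In FPKM without the added 1, the ratio was 3.86 for FAP, 2.63 for MME and 2.06 for PDGFRA. The other measured genes of the list were under 2-fold by that ratio as well. Listed but not measured were PDPN (19 and 8 fragments), NT5E (5 and 5), DPT (1 and 6) and LRRC15 (1 and 2). These were named after their values were seen. On this list the median log2 ratio was 0.05, against 0.10 over all measured genes, with MMP14 at 53.4 and 42.2, ENG at 21.2 and 17.3, FAP at 0.465 and 1.80 and PDGFRA at 2.65 and 5.45.

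Actin-binding and contractile genes had no single direction. Of 11 measured genes 1 was at least 2-fold higher and 0 lower, beside 11.9% and 0.444% of all measured genes. Their median log2 ratio was -0.33 and turned to 0.02 with the trends subtracted, beside 0.10 over all measured genes in each case. CALD1, which encodes caldesmon, had 3.42 and 9.06, a ratio of 2.65 (2.40 to 2.93), and its log2 ratio went from 1.19 to 0.57, under 2-fold, with the trends subtracted. CNN2, a calponin, had 120 and 78.2, a ratio of 0.650 (0.626 to 0.674). ACTA2, the smooth muscle actin of activated fibroblasts, had 1.87 and 0.969. The GC content was 41.6% for CALD1, 58.9% for CNN2 and 51.8% for ACTA2.

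Integrins that bind fibronectin and periostin differed among themselves. Of 11 measured receptors and assembly partners 4 were higher by 2-fold or more, beside 11.9% of all measured genes, and 0 were lower. The median log2 ratio of the list was 0.02, with 6 ratios above 0 and 5 below. ITGAV, the alpha chain of several receptors for POSTN, had 3.68 and 13.4, a ratio of 3.64 (3.29 to 4.04). ITGA4 had 4.45 and 10.2, and ITGB1, the common beta chain, 28.4 and 57.9, which lies at the 2-fold threshold. LOX, with the values given for the matrix genes, was the fourth. ITGA5, the alpha chain of the main fibronectin receptor, was lower, with 35.4 and 23.6 and a ratio of 0.667 (0.636 to 0.700). The beta chain gene ITGB5 was also lower, with 12.1 and 8.47 and a ratio of 0.702 (0.643 to 0.766). ITGB3 was not measured, with 18 fragments in each library. ITGB5 and ITGB3 were named after their values were seen. ANXA2 had 90.4 and 91.7, and SDC1 46.4 and 37.4. The GC contents were 38.3% for ITGAV, 44.1% for ITGA4, 40.0% for ITGB1 and 58.7% for ITGA5. With the trends subtracted the log2 ratios were 0.65, 0.65, 0.24 and -0.17, all under 2-fold.

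All 6 listed transcription factors that drive the mesenchymal programme were measured, with a median log2 ratio of 0.55, against 0.10 over all measured genes. ZEB1 (3.06 and 7.82) and PRRX1 (20.4 and 43.7) were at least 2-fold higher in FPKM + 1. That was 2 of 6, beside 11.9% of all measured genes. TWIST1 had 64.6 and 85.3, SNAI2 13.2 and 18.5 and ZEB2 1.17 and 2.40, while SNAI1 had 30.5 and 19.8. With the trends subtracted the median of the list went to 0.04, while that over all measured genes stayed at 0.10. By that setting 0 of the 6 were at least 2-fold apart. ZEB1 was then at 0.17, PRRX1 at 0.38 and SNAI1 at -0.12, while TWIST1, with a GC content of 57.2%, went from 0.40 to 0.86. SNAI2 turned from 0.46 to -0.08 and ZEB2 from 0.65 to -0.25.

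**Figure D4:**
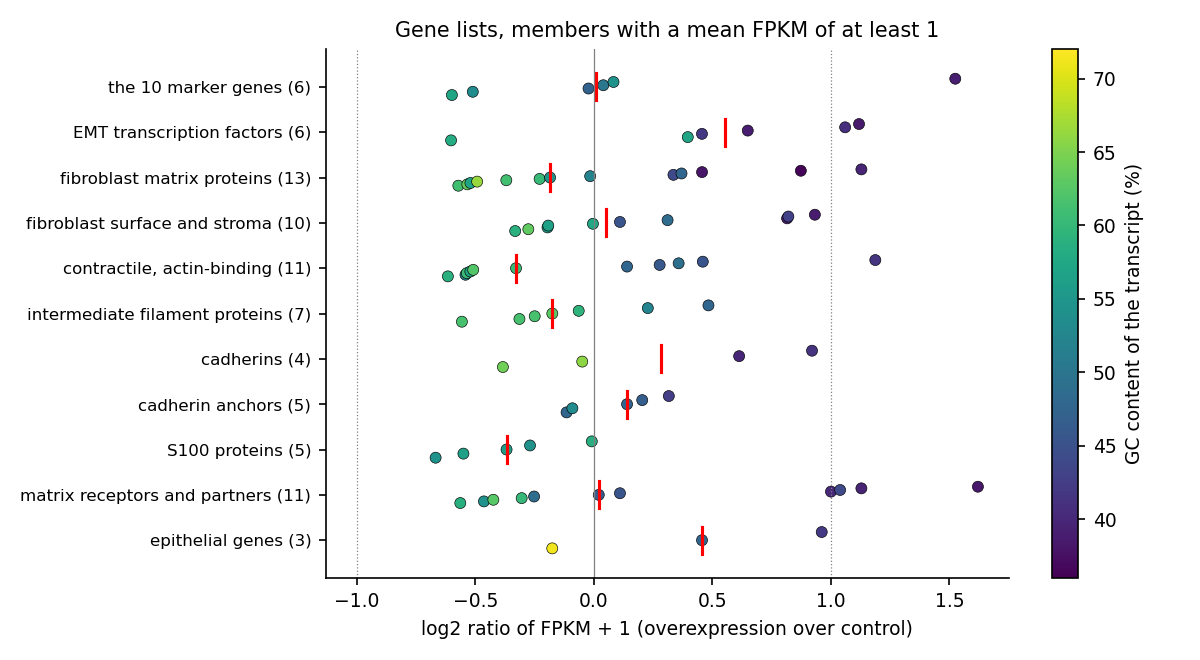
The log2 ratio of FPKM + 1 for each measured gene of 11 lists (points, coloured by GC content of the transcript, with the number measured in brackets), the median of each list (red) and dotted lines at 2-fold. In most lists the darker points, with a low GC content, lie to the right, and POSTN at 1.52 stands apart from the other 5 measured markers.

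Other scalings of the libraries moved the log2 ratios of all genes toward the lower side. The shift was 0.21 by the trimmed mean of M values, a robust mean of the log ratios, and 0.42 by upper-quartile scaling. POSTN was then at 1.32 and 1.11, still past 2-fold, while VIM and FN1 turned to the lower side, at -0.12 and -0.34 for VIM and at -0.12 and -0.29 for FN1. THY1 (-0.79 and -0.99) and S100A4 (-0.72 and -0.93) stayed lower and under 2-fold. SPARC went from -0.02 to -0.22 and -0.43. The directions of POSTN, THY1, S100A4 and SPARC were the same under all 6 settings drawn, and those of VIM and FN1 were not. For THY1, S100A4 and SPARC, below 0 as deposited, only the trend subtraction could have changed the direction. The scalings move every gene lower, and a smaller pseudocount keeps the sign. The deposited ratio of SPARC had an interval of 0.931 to 1.04, which includes 1.

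**Figure D5:**
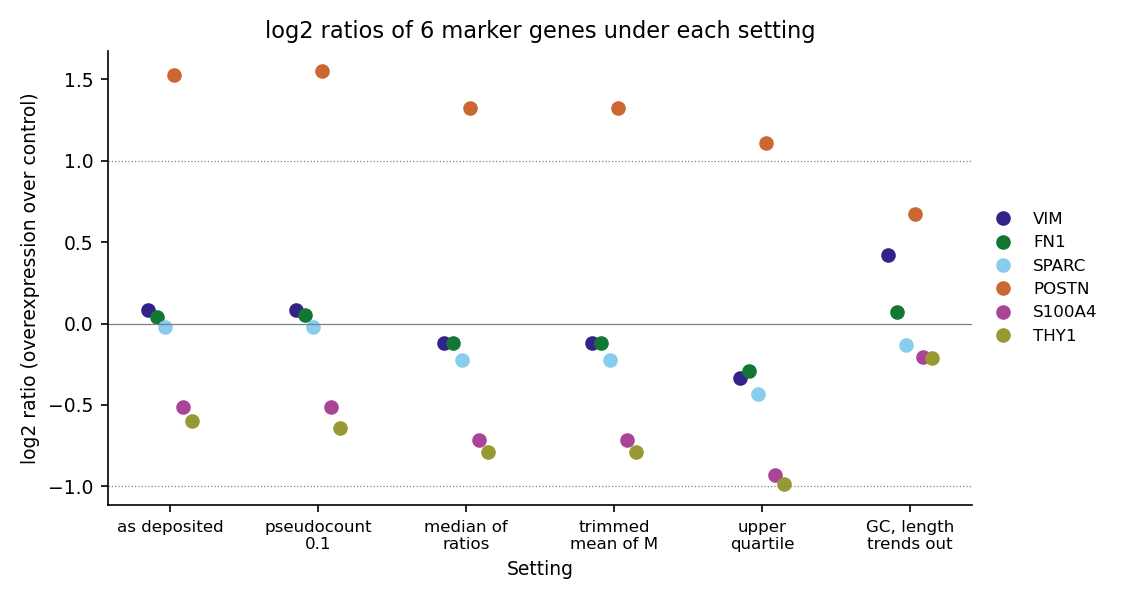
The log2 ratio, overexpression over control, of the 6 measured markers under 6 settings, with dotted lines at 2-fold. POSTN lies above 1 under 5 settings and at 0.68 with the trends on GC content and length subtracted, and VIM and FN1 lie on both sides of 0.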

How the data were processed

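Poly(A)-selected RNA of 2 libraries was sequenced, 1 per group. Per the submitters' processing notes, HISAT2 2.1.0, Bowtie2 2.2.3, HTSeq 0.6.0 and GRCh38 were used; their roles, the annotation and strand setting are not given in the sources used here. The labels do not name the unit of the authors' deposited values, which were read as FPKM. Multiplied by the merged exon length in GENCODE 29, they were whole fragments within 0.02 for 94.5% (control) and 94.3% (overexpression) of genes with a length, which gave the depths and fragments.

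Python 3.11.15, scipy 1.17.1 and statsmodels 0.14.6 were used. Ratios are log2 of FPKM + 1, and a mean FPKM of 1 or more counted as measured. Intervals are Poisson for levels and Clopper-Pearson for ratios; genes without whole fragments have none. Lowess trends (span 0.3) on GC content, then on length, of a representative transcript (the longest coding one that has a 3′ UTR) were subtracted as an alternative, and the code was tested on simulated data. Symbols from the gene name table and GENCODE 29 were matched for 28109 genes. The members, the 16 other lists and the tests were chosen with earlier results of these data known. All markers were named, and per list up to 4 measured genes by level and 3 by absolute log2 ratio; the genes nearest a marker are the 3 closest in log2 ratio and log2 mean level. Alternatives were 3 scalings, a pseudocount of 0.1, no filter, a mean FPKM of at least 5, a 1.5-fold threshold and an interval wholly past 2-fold. No comparison could be tested between single libraries.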

Additional observations from a re-analysis of the deposited data

How the results depend on the processing

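No paired analysis was possible because there was 1 library per group, and no library could be left out. The count of 1 marker at least 2-fold higher became 0 after subtraction of the trends on GC content and length, and the count of 0 lower became 1 (THY1) at 1.5-fold. Under the other settings both counts were as deposited, with an interval wholly past 2-fold, a pseudocount of 0.1, no filter, a mean FPKM of at least 5 and the 3 scalings.

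The median log2 ratio of the markers, 0.01 as deposited, turned to -0.17 by median of ratios, -0.17 by trimmed mean of M values and -0.38 by upper quartile. It was -0.023 at a mean FPKM of at least 5 and -0.031 with the trends subtracted. The median over all genes past the limit was 0.10 as deposited. Under these settings in turn it was -0.07, -0.07, -0.24, -0.10 and 0.10, so the scalings moved all genes lower as well. By the same 3 scalings VIM turned from 0.08 to -0.12, -0.12 and -0.34, and FN1 from 0.04 to -0.12, -0.12 and -0.29. The trend subtraction moved POSTN most, from 1.52 to 0.68. The cause was not tested. By transcript length, chosen after the data were seen, the log2 of VIM over S100A4 in the control turned from -0.21 to 0.29. Depth limits CDH2, CDH11, TNC and TAGLN, with 45 fragments or fewer.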
